A study of Homo sapiens with 6 samples.

Results

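The genes of cholesterol synthesis and sterol regulation were examined in Kasumi-1 cells, a human AML line that carries the RUNX1-RUNX1T1 fusion of the t(8;21) translocation. The group held 30 genes, chosen by name, and all 30 were found among the 29810 genes of the expression table. They comprised 20 synthesis enzymes, 5 genes of sterol sensing and 5 genes of transport, uptake control and efflux. A total of 28 had a mean of at least 0.5 FPKM (fragments normalised to gene length and library total) and were tested among 12960 genes. The efflux pumps ABCA1 and ABCG1 were below this minimum.

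mRNA-seq was available for 3 libraries of control cells, which received the vehicle DMSO, and 3 libraries of cells incubated with 0.25 μM of the HDAC inhibitor I3 for 48 h. All 6 libraries came from this single line, and nothing in the labels tells whether the samples of a group were separate cultures. The p-values therefore measure only the spread between these samples, which may be technical. The sequencing depth, rebuilt from the FPKM steps, ranged from 17500320 to 18193373 reads.

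The markers of the line were present in every library, with MPO at 7740 to 8612 FPKM, KIT at 197.8 to 224.6 and RUNX1T1 at 14.07 to 16.97. The summed level of all 6 Kasumi-1 markers was 8057 to 8894 FPKM in control libraries and 8015 to 8592 in I3 libraries. Of 10 markers of other cell types, 7 were in the table and 6 of these were at or near 0, none exceeding 1.089 FPKM. The exception was the epithelial marker EPCAM, at 28.15 to 31.6 FPKM. The summed level of the 7 markers was 29.76 to 31.62 FPKM in control and 29.08 to 31.99 in I3 libraries.

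Cells build cholesterol from acetyl-CoA through mevalonate, isoprenoid intermediates and squalene, whose epoxide is closed into the sterol ring. When sterols are scarce in the membrane of the endoplasmic reticulum, SCAP escorts the SREBP transcription factors to the Golgi, where proteases release their active part, and this part turns on the synthesis genes. When sterols are plentiful, INSIG proteins hold the SCAP and SREBP complex back, whereas the LXR receptors turn on genes of efflux and reduced uptake such as ABCA1, ABCG1 and MYLIP.

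SREBP factors act at promoters with a sterol regulatory element, often together with the factors NF-Y and Sp1. RefSeq promoter windows of 300 bases (GRCh38.p14), from 250 bases before to 50 after the start, were found for 26 of the 30 genes. The NF-Y box CCAAT, read on both strands, occurred in the windows of 18 of these 26 genes (69.2%). The share was 43.1% of 8924 tested genes and 39.7% of all 27305 genes with windows. The Sp1 box GGGCGG was held by 24 of the 26 genes (92.3%), against 77.2% of tested genes and 48.3% of all genes with windows. The sterol element TCACNCCAC was found only in SREBF2 among the 26 genes (3.85%), against 1.40% of tested genes and 1.39% of all genes with windows. These matches describe the letters of the windows and were not tested as binding sites. Only exact matches within the 300 bases were counted, so sites with other letters or farther away would be missed. No searched motif contains another.

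The 250 bases before the start are shown for 6 genes. HMGCS1 and EBPL had more than 1 window, and the start farthest upstream was used. STARD4, MSMO1, INSIG1 and HMGCS1 had a wide spread between libraries of a group, SREBF2 encodes the SREBP factor centred on cholesterol genes, and EBPL differed most between control and I3. The sequences are written 5′ to 3′ on the strand of the gene, and capitals mark the NF-Y box (CCAAT or its reverse ATTGG) and, in SREBF2, also the sterol element.
STARD4 (chr5:111512536-111512785, minus strand): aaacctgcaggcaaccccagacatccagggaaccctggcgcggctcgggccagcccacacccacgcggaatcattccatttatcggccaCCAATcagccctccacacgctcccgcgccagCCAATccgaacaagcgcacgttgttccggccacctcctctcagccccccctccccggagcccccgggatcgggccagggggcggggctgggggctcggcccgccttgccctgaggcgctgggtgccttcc
MSMO1 (chr4:165327419-165327668, plus strand): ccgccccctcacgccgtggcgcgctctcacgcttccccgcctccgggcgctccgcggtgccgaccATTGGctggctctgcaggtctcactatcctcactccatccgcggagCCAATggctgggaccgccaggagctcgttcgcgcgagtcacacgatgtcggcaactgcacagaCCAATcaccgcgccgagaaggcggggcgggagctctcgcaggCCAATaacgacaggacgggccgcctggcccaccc
INSIG1 (chr7:155297628-155297877, plus strand): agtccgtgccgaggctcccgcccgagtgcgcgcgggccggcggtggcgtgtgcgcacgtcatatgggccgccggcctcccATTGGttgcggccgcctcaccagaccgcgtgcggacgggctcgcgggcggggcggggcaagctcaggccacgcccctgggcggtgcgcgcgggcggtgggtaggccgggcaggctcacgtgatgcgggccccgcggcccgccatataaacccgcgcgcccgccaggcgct
HMGCS1 (chr5:43313413-43313662, minus strand): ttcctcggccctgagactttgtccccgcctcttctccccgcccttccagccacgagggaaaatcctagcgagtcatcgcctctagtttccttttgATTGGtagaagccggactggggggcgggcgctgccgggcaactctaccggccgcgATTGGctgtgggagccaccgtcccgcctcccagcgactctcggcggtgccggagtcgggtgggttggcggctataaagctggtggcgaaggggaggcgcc
SREBF2 (chr22:41832855-41833104, plus strand): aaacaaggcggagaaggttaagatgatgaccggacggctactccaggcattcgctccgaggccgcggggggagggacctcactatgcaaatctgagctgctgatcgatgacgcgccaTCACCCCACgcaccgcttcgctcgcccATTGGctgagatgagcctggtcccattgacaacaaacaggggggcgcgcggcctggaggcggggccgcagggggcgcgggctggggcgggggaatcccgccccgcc
EBPL (chr13:49691488-49691737, minus strand): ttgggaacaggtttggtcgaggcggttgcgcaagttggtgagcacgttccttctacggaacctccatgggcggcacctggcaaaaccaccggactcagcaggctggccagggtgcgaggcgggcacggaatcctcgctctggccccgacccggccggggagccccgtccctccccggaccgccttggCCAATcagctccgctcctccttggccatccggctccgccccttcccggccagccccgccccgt
MSMO1 held 4 NF-Y boxes in this stretch, STARD4 and HMGCS1 held 2 each, and INSIG1, SREBF2 and EBPL held 1 each. The other window of HMGCS1, which is not shown, held 0. In SREBF2 the sterol element lay farther from the start than the NF-Y box.

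No single cholesterol gene was called different after I3, nor was any other tested gene, and the group as a whole was not tested. In limma on log2(FPKM + 0.5) with Benjamini-Hochberg adjustment over 12960 genes, 0 of the 28 tested genes passed an adjusted p of 0.05 with a log2 fold change of at least 0.58, and the same held for all genes (0%). At an unadjusted p under 0.05, 269 of all genes were higher (2.08%) and 370 lower (2.85%). Among the cholesterol genes, 0 were higher and 1, EBPL, was lower, which is 3.57% of the 28 and near the share of all genes. No cholesterol gene had an adjusted p below 0.868.

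Of the 28 genes, 10 had a log2 fold change above 0 and 18 below 0, beside 7026 above and 5934 below among all tested genes. The median log2 fold change was -0.02 for the 20 synthesis enzymes, -0.01 for the 5 sensing genes and 0.02 for the 3 tested transport genes, beside 0.01 for all tested genes. Apart from EBPL, the 27 other genes lay between -0.17 and 0.16. The 95% interval of the log2 fold change stayed within 0.58 of 0 for 26 of the 28 genes and reached past it for EBPL and STARD4.

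**Figure D1:**
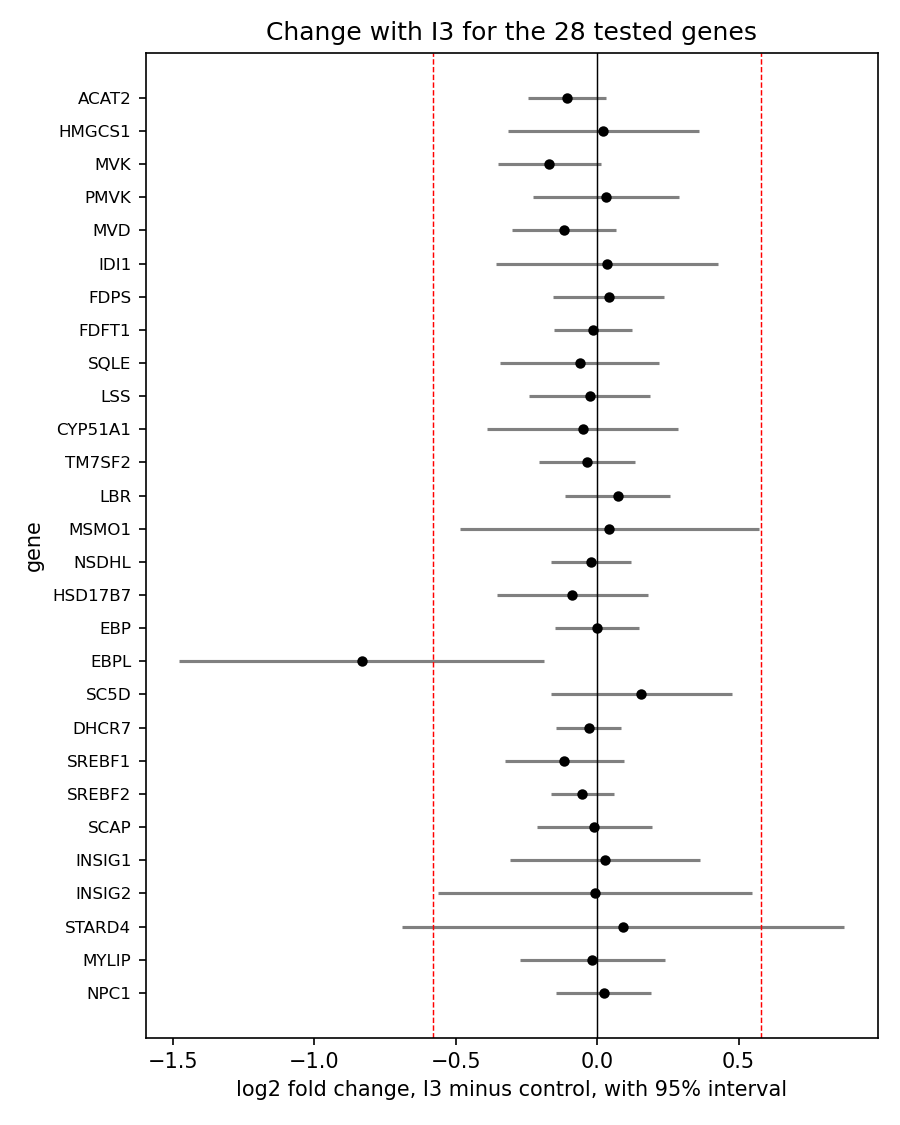
The log2 fold change of each tested gene (x axis, I3 minus control on log2(FPKM + 0.5)) is drawn as a point with its 95% interval from limma, and the dashed lines mark 0.58 in either direction. EBPL at -0.83 lies apart, and the 27 other points lie between -0.17 and 0.16.

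The groups did not overlap, with I3 lower, for 3 genes (EBPL, MVK and ACAT2), 10.7% of the 28 against 4.64% of all tested genes. They did not overlap with I3 higher for 0 of the 28, against 5.06% of all tested genes. These shares are descriptions, and with 3 libraries against 3 the smallest possible p of a two-sided exact permutation test is 0.1. In bulk RNA, fewer cells with a transcript and less of it per cell cannot be told apart.

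Spread between libraries of 1 group took a pair of forms, and both touch the results. For EBPL, I3 1 lay near the control libraries and apart from I3 2 and I3 3. For a set of enzymes, sensing genes and transport genes around STARD4, MSMO1 and INSIG1, control 1 lay above the other controls.

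**Figure D2:**
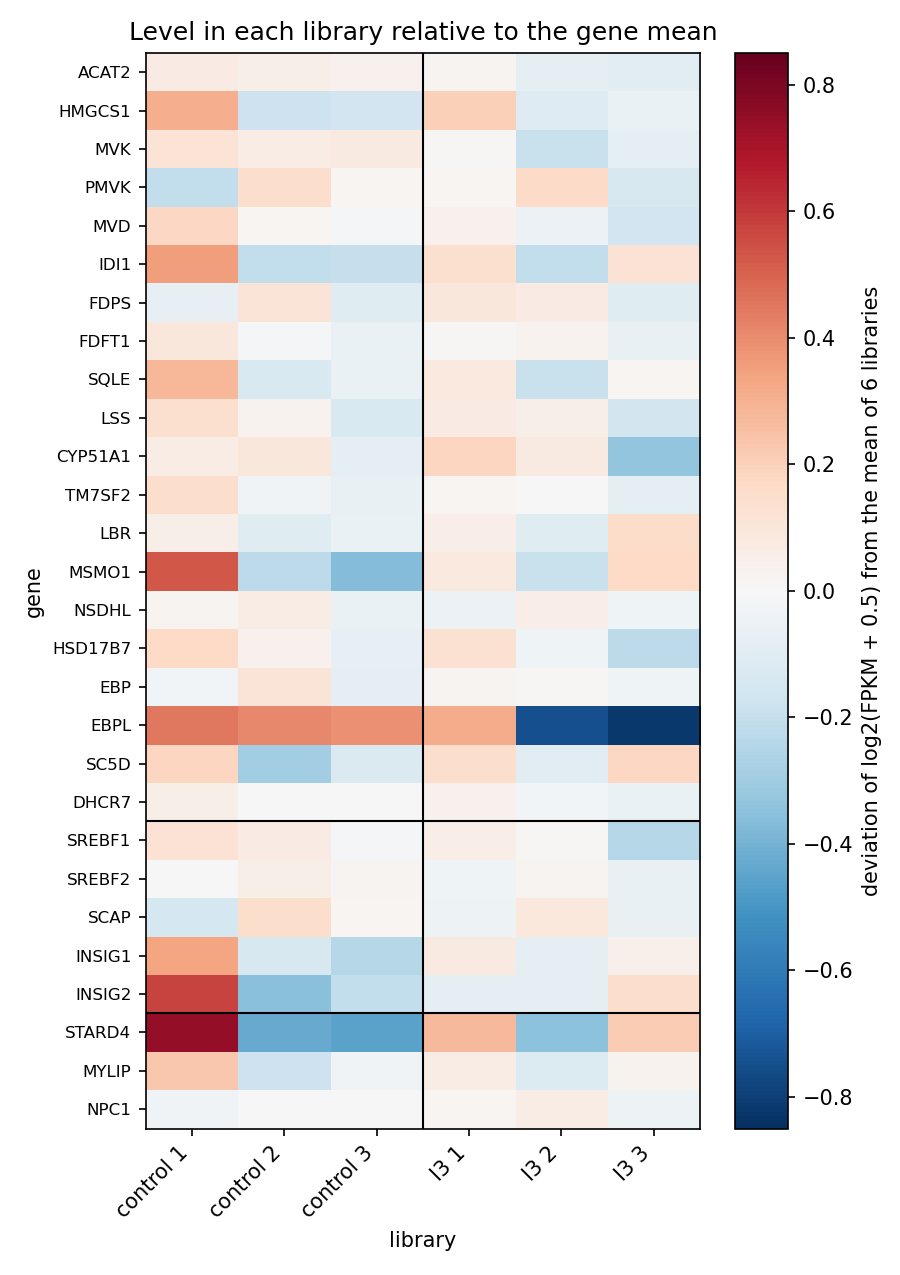
Each cell shows how far log2(FPKM + 0.5) of a tested gene (rows, ordered by role with lines between roles) lay from its mean over the 6 libraries (columns), with red above and blue below the mean. EBPL is low only in I3 2 and I3 3, and STARD4, INSIG2 and MSMO1 are highest in control 1.

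EBPL (ENSG00000123179, chr13:49660723-49691475, minus strand, GRCh38), a relative of the sterol isomerase EBP, had the widest difference of the group. Its level was 64.1, 62.3 and 61.5 FPKM in control 1, 2 and 3, and 58.3, 27.7 and 26.3 FPKM in I3 1, 2 and 3. The controls were nearly equal, I3 1 was 5.19% below the lowest control, and the lowest control was 2.22 times I3 2 and 2.34 times I3 3. The means were 62.6 ± 1.31 FPKM in control and 37.4 ± 18.1 FPKM in I3 (SD, n = 3). The log2 fold change was -0.83 (SE 0.275, 95% interval -1.48 to -0.19), with an unadjusted p of 0.0184 and an adjusted p of 0.868 in limma. The exact permutation p was 0.1, the smallest possible.

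The depth behind the EBPL values was ample, with 1697, 1663 and 1614 rebuilt reads in the control libraries and 1558, 740 and 718 in the I3 libraries. No other gene of the annotation shares exon bases with EBPL. Its SD within groups was larger than that of 99.3% of 6642 genes with a mean of at least 5 FPKM. With all libraries EBPL was not called, and it was called only when I3 1, the I3 library nearest the controls, was left out. Without I3 1 the log2 fold change was -1.20 (SE 0.0618) with an adjusted p of 0.0100 in limma, and EBPL was then 1 of 2 genes called lower among all 12960 (0.0154%). Without I3 2 or I3 3, with I3 1 kept, it was -0.67 and -0.63, and neither had an unadjusted p under 0.05.

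On chromosome 13, 6 genes near EBPL were examined, and none was low in I3 2 and I3 3 alone. RCBTB1 had 15.8, 17.3 and 15.7 FPKM in the controls and 15.1, 17.9 and 17.7 FPKM in I3 1, 2 and 3. For KPNA3, an importin gene, the values were 23.4, 19.2 and 19.7 FPKM in the controls and 22.4, 19.1 and 24.1 FPKM in I3. In ARL11 they were 9.01, 10.1 and 10.2 FPKM in the controls and 8.80, 10.5 and 10.1 FPKM in I3. The groups overlapped for all 3 of these neighbours, which were picked for display after their values were seen.

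EBP itself (ENSG00000147155, chrX:48521158-48528716), which shifts a double bond in the sterol ring, was level. It had 34.6, 37.9 and 33.1 FPKM in the controls and 35.8, 35.4 and 34.3 FPKM in I3. The I3 values lay inside the range of the controls, and the 95% interval of the log2 fold change was -0.15 to 0.15.

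**Figure D3:**
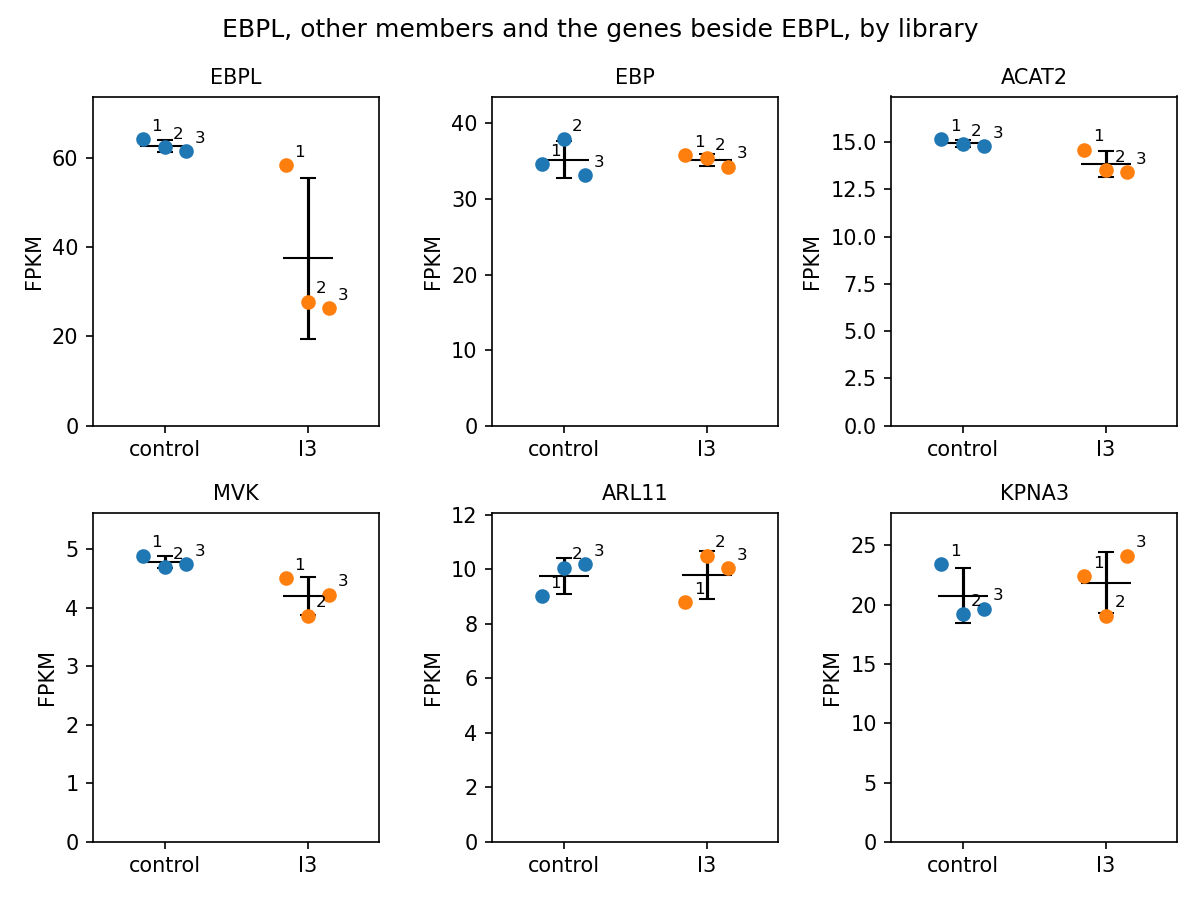
FPKM of EBPL, EBP, ACAT2, MVK and the EBPL neighbours ARL11 and KPNA3 (y axes from 0) is shown for control and I3, with numbered points for libraries, a line for the mean and bars for the SD (n = 3). EBPL has I3 1 near the controls at 58.3 FPKM and I3 2 and I3 3 at 27.7 and 26.3, and ACAT2 has the same order of I3 libraries over a much narrower range.

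Over the 6 libraries, the cholesterol genes whose level followed EBPL most closely were ACAT2 (Pearson r = 0.987), MVK (0.907), DHCR7 (0.812), MVD (0.771) and SREBF1 (0.733). These values are descriptions over 6 libraries that share the split between control and I3.

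The enzymes at the start of the pathway came next. ACAT2 (chr6:159760328-159779055), which joins acetyl-CoA units, had 15.1, 14.9 and 14.8 FPKM in the controls and 14.6, 13.5 and 13.4 FPKM in I3. All I3 values lay below all control values, although I3 1 lay close to control 3. In limma it had a log2 fold change of -0.11 (SE 0.0584, 95% interval -0.24 to 0.03; adjusted p = 0.998 in limma). ACAT2 shares 397 exon bases, 9.24% of its exons, with TCP1 on the opposite strand. On that strand it also shares 1141 bases (26.5%) with SOD2 and 1458 (33.9%) with SOD2-OT1, which are not in the expression table. It is not given whether strand was used in counting.

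MVK (chr12:109573255-109598117), the kinase that phosphorylates mevalonate, had 4.89, 4.70 and 4.74 FPKM in the controls and 4.51, 3.87 and 4.22 FPKM in I3. Its groups did not overlap, with I3 2 the lowest library. The log2 fold change was -0.17 (SE 0.0772, 95% interval -0.35 to 0.01), with an unadjusted p of 0.0632 and an adjusted p of 0.998 in limma. With median-of-ratios scaling the unadjusted p in limma was 0.0493, and the adjusted p stayed above 0.05.

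HMGCS1 (chr5:43289395-43313512), which makes HMG-CoA, was among the most abundant enzymes, with 103, 73.6 and 74.2 FPKM in the controls and 95.7, 76.9 and 80.0 FPKM in I3. Control 1 and I3 1 were high in their groups, and the ranges of the groups overlapped. Its log2 fold change was 0.02 (SE 0.144, 95% interval -0.32 to 0.36). The groups also overlapped for the next enzymes. PMVK, the second kinase of the pathway, had 24.1, 31.0 and 28.3 FPKM in the controls and 28.4, 31.3 and 25.5 in I3. MVD, which forms isopentenyl diphosphate, had 21.9, 19.5 and 19.1 against 19.8, 18.6 and 17.2 FPKM.

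IDI1, which isomerises isopentenyl diphosphate, had 76.3, 51.4 and 51.9 FPKM in the controls and 65.6, 51.4 and 64.9 FPKM in I3, so that control 1 was again the highest library. FDPS, which makes farnesyl diphosphate, had 12.9, 14.7 and 12.6 FPKM against 14.5, 14.3 and 12.6 FPKM, and its ranges overlapped.

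FDFT1, which commits farnesyl diphosphate to squalene, had the highest control mean of the group. It had 105, 97.0 and 94.5 FPKM in the controls (99.0 ± 5.66, SD, n = 3) and 99.2, 101 and 94.0 FPKM in I3 (97.9 ± 3.45). The log2 fold change was -0.01, and its interval of -0.15 to 0.12 was narrow. SQLE, which oxidises squalene, had 95.6, 71.6 and 75.2 FPKM in the controls and 83.0, 68.8 and 79.2 FPKM in I3. Control 1 was the highest library and the groups overlapped, with a log2 fold change of -0.06 (SE 0.12, 95% interval -0.35 to 0.22).

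The enzymes that close and trim the sterol ring followed. LSS, which closes the ring, had 35.9, 33.4 and 29.8 FPKM in the controls and 34.3, 33.8 and 29.2 in I3. TM7SF2 and LBR, the reductases that act at the same step, had 22.1, 19.4 and 19.0 against 20.1, 19.9 and 18.8 FPKM, and 60.5, 54.4 and 56.3 against 60.8, 54.4 and 65.4 FPKM. CYP51A1, the demethylase before them, had 3.02, 3.10 and 2.68 against 3.32, 3.05 and 2.17 FPKM. The ranges of all these genes overlapped. The CYP51A1 value is uncertain, because 79.4% of its exon bases are shared with another annotated gene on the same strand.

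NSDHL, which works with MSMO1 in removing methyl groups, was level at 21.1, 21.6 and 19.9 FPKM in the controls and 19.9, 21.5 and 20.2 FPKM in I3. HSD17B7, the ketoreductase of this step, had 4.09, 3.68 and 3.38 against 3.96, 3.47 and 3.00 FPKM. The pseudogene HSD17B7P2 was listed at a mean of 2.94 FPKM in control and 2.99 FPKM in I3, and how reads were divided between these copies was not tested. DHCR7, which carries out a late reduction, had 80.0, 77.3 and 77.1 against 79.2, 76.2 and 74.3 FPKM. DHCR7 was among the steadiest genes of the group, with an SD within groups larger than that of only 5.18% of the 6642 genes, and its interval was -0.14 to 0.08.

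A wide spread between libraries of a group was also seen in MSMO1. MSMO1 (chr4:165327623-165343160), which removes methyl groups from the sterol ring, had 28.7, 16.9 and 15.2 FPKM in the controls and 21.1, 17.4 and 22.3 FPKM in I3. Control 1 was 1.89 times control 3, and all I3 values lay between the extremes of the controls. I3 minus control was 0.04 on the log2 scale (SE 0.225, 95% interval -0.48 to 0.57). SC5D, which adds the next double bond, had 6.09, 4.24 and 4.84 FPKM in the controls and 5.96, 4.94 and 6.07 FPKM in I3, with a log2 fold change of 0.16 (SE 0.136).

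No regulator was called different, and the groups overlapped for each, although the intervals of INSIG1 and INSIG2 were wide. SREBF2 (chr22:41833079-41907308), which encodes SREBP-2, had 79.8, 82.2 and 80.8 FPKM in the controls and 77.6, 80.8 and 75.9 FPKM in I3. Its SD within groups was larger than that of only 3.94% of the 6642 genes. I3 differed from control by -0.05 on the log2 scale (SE 0.0479, 95% interval -0.17 to 0.06). SREBF1, which encodes the forms centred on fatty acid genes, had 26.2, 25.2 and 23.7 FPKM in the controls and 25.0, 24.2 and 20.2 FPKM in I3. I3 3 was its lowest library, and the log2 fold change was -0.12 (SE 0.0895, 95% interval -0.33 to 0.09).

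SCAP had 25.5, 31.5 and 28.6 FPKM in the controls and 27.4, 30.2 and 27.2 FPKM in I3, all inside the range of the controls, and its log2 fold change was -0.01 (SE 0.0865, 95% interval -0.21 to 0.19). INSIG1 (chr7:155297776-155310235), itself a target of SREBP factors, had 101, 72.6 and 67.6 FPKM in the controls and 84.4, 75.5 and 82.4 FPKM in I3. Control 1 was 1.497 times control 3, and the log2 fold change was 0.03 (SE 0.143, 95% interval -0.31 to 0.36). INSIG2, the second retention protein, was the least abundant of the tested genes, with 3.48, 1.59 and 1.81 FPKM in the controls and 2.02, 2.03 and 2.46 FPKM in I3. Its highest control was 2.19 times its lowest. The log2 fold change of INSIG2 was -0.01 (SE 0.236, 95% interval -0.56 to 0.55), and its direction changed with the pseudocount and with rescaling.

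STARD4 (chr5:111496033-111512590, minus strand), which carries cholesterol between membranes, had the widest spread within groups among the tested genes of at least 5 FPKM. It had 15.6, 6.63 and 6.51 FPKM in the controls and 11.1, 7.04 and 10.6 FPKM in I3. Control 1 was 2.40 times control 3, and I3 1 was 1.58 times I3 2. These values rest on 1567, 671 and 648 rebuilt reads in the controls and 1127, 712 and 1101 in I3. Its SD within groups was larger than that of 99.6% of the 6642 genes, and the log2 fold change was 0.09 (SE 0.333, 95% interval -0.69 to 0.87).

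MYLIP, which marks lipoprotein receptors for degradation, had 25.2, 18.8 and 20.9 FPKM in the controls and 22.3, 19.6 and 21.9 FPKM in I3. NPC1, which exports cholesterol from lysosomes, was level at 3.58, 3.67 and 3.67 FPKM against 3.71, 3.86 and 3.55 FPKM, a log2 fold change of 0.02 (SE 0.0712). The efflux pumps were low. ABCA1 was represented by 4, 0 and 0 rebuilt reads in the controls and 1, 2 and 0 in I3, where a count of 0 allows up to 3 reads, or 0.0151 FPKM. ABCG1 had 54, 5 and 23 reads in the controls and 48, 10 and 41 in I3, so that the I3 values all lay within the range of the controls, and the gene was below the minimum for the test.

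The spread was shared across genes. Of the 28 tested genes, 9 had a range over the controls of more than 0.4 on the log2 scale, namely HMGCS1, IDI1, SQLE, MSMO1, SC5D, INSIG1, INSIG2, STARD4 and MYLIP. Control 1 was the highest control for all 9, and I3 2 was the lowest I3 library for 8 of them, INSIG2 being the exception. Over all 28 genes control 1 was the highest control for 20 (71.4%), against 43.4% of all tested genes, and I3 1 was the highest I3 library for 18 (64.3%), against 29.7%. Of the 23 cholesterol genes with a mean of at least 5 FPKM, 7 had an SD within groups above that of 90% of such genes.

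**Figure D4:**
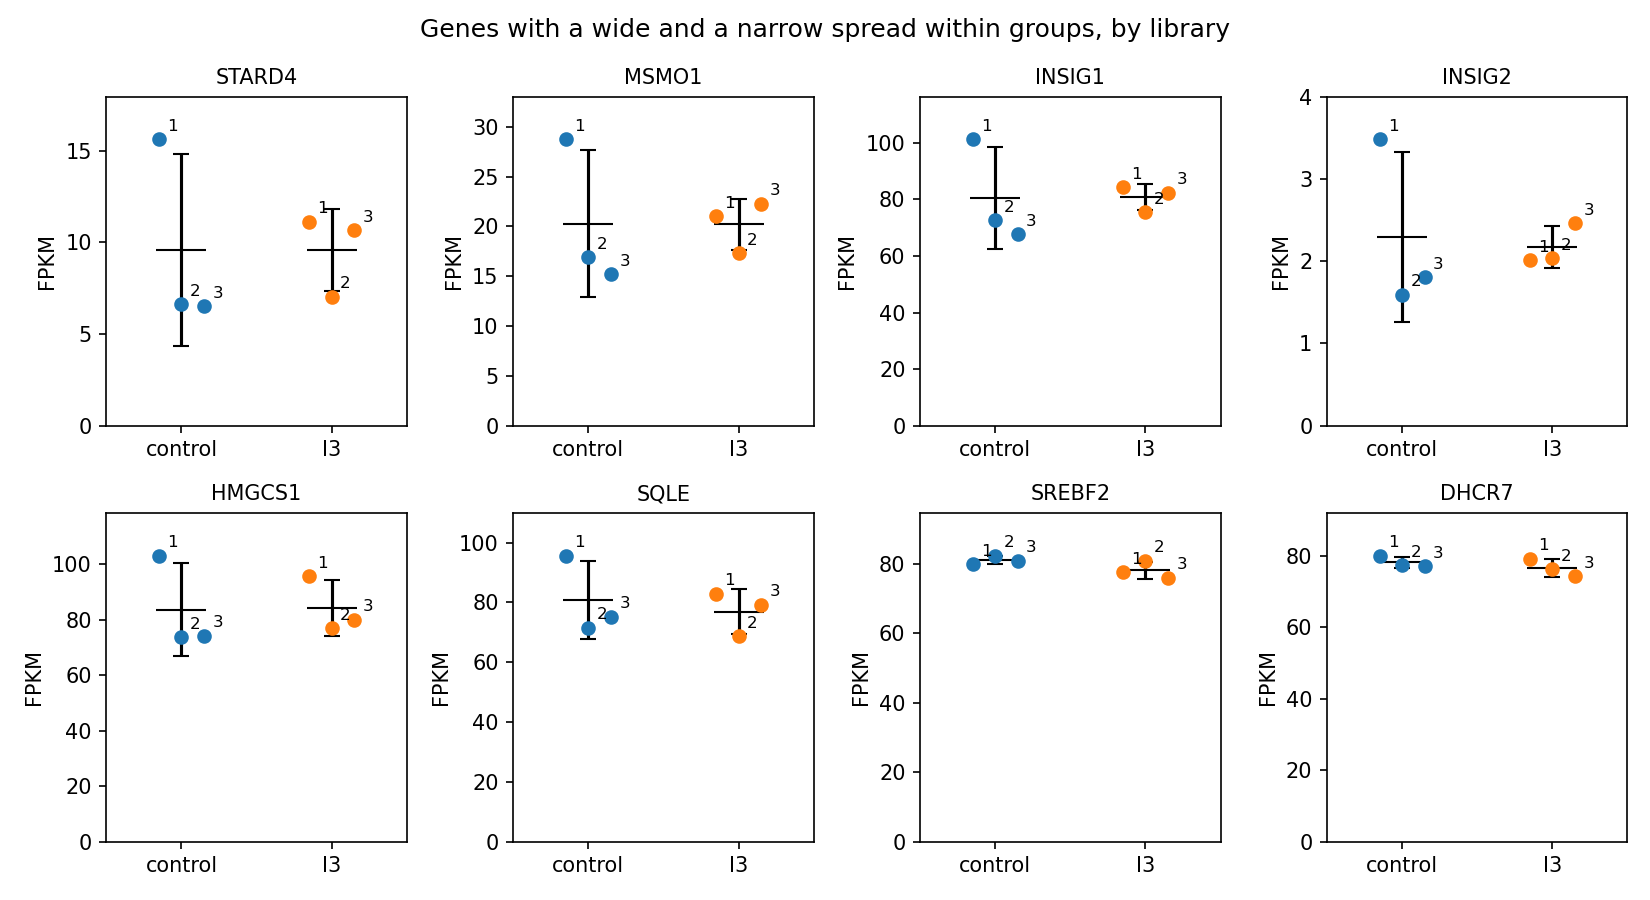
FPKM (y axes from 0) is shown for control and I3 in 6 genes with a wide spread and in SREBF2 and DHCR7 with a narrow one, with numbered points for libraries, a line for the mean and bars for the SD (n = 3). Control 1 is the highest control in each of the 6 wide genes, most clearly STARD4 at 15.6 against 6.63 and 6.51 FPKM.

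Libraries also differed by the GC content of transcripts, and whether this accounts for the spread was not tested. Across all tested genes, libraries departed from the gene mean with GC content at rank correlations of -0.313 for control 1, -0.232 for I3 1 and -0.446 for I3 3, and positive ones for the others. The 9 genes have transcripts of 37.2% to 49.4% GC. LBR, CYP51A1 and HSD17B7, at 41.2%, 40.6% and 44.3% GC, had smaller ranges over the controls of 0.15, 0.18 and 0.24. When each library's GC trend was removed, the range over the controls became smaller for these 9 genes, which were chosen for a wide range. For MYLIP it barely moved (0.4081 to 0.4076), and of the 19 other tested genes it became smaller for 9 and larger for 10. For STARD4 it went from 1.20 to 1.02 on the log2 scale, for MSMO1 from 0.89 to 0.64 and for SQLE from 0.42 to 0.23. Control 1 was still the highest control for all 9. Among genes of at least 45% GC, control 1 was the highest control for 11 of 18 cholesterol genes (61.1%), against 30.2% of 8661 tested genes. Under 45% GC it was the highest control for 9 of 10 cholesterol genes (90%), against 70.2% of 4278 tested genes. There I3 2 was the lowest I3 library for 7 of the 10 (70%), against 58.3% of tested genes. At 45% GC or more, I3 1 was the highest I3 library for 12 of 18 cholesterol genes (66.7%), against 28.7% of tested genes. In the same 18 genes I3 3 was the lowest I3 library for 14 (77.8%), against 42.7% of tested genes.

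The comparison with I3 depended on control 1 for these genes. Without control 1, 4 of the 28 genes (14.3%) were higher in I3 at an unadjusted p under 0.05 in limma, against 7.3% of all tested genes. These were STARD4 with a log2 fold change of 0.49 (unadjusted p = 0.0391 in limma), MSMO1 with 0.32 (0.0311), SC5D with 0.29 (0.0395) and INSIG1 with 0.20 (0.0223). None had an adjusted p under 0.05. Control 1 was the highest control for all 4, so leaving it out raises these values by construction. The shares and p-values without it are descriptions only.

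Other genes of the pathway were counted in lists. Of 16 genes of SREBP processing and sterol-regulated degradation, all tested, 0 were higher and 0 lower at an unadjusted p under 0.05, with a median log2 fold change of 0.04. Fatty acid synthesis and desaturation (12 tested, median -0.01) and the LXR receptors with their partners (7 tested, median 0.01) likewise had 0 in either direction. Among 13 genes of the isoprenoid branches, 0 were higher and 2 lower, with a median of -0.05. Of 13 tested genes of storage, lysosomal and non-vesicular transport, 0 were higher and 1 lower, with a median of 0.00. By the same rule 2.08% of all tested genes were higher and 2.85% lower. These counts over short lists are descriptions.

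COQ2, which attaches the isoprenoid tail in coenzyme Q synthesis, had 10.49, 10.01 and 9.68 FPKM in the controls and 8.96, 7.11 and 7.83 FPKM in I3. Its log2 fold change was -0.32 (SE 0.0900, unadjusted p = 0.00822, adjusted p = 0.812 in limma). DOLK, the dolichol kinase, had 6.07, 7.45 and 6.67 FPKM in the controls and 5.56, 5.59 and 5.60 FPKM in I3, a log2 fold change of -0.24 (adjusted p = 0.931). GRAMD1A, a cholesterol carrier at membrane contacts, had 29.5, 33.1 and 30.2 FPKM against 26.0, 29.3 and 26.2 FPKM, a log2 fold change of -0.19 (adjusted p = 0.998). The groups did not overlap, with I3 lower, for any of the 3 genes, beside 4.64% of all tested genes, and none passed the adjusted threshold. Over the same lists, 1 further gene of SREBP processing and degradation did not overlap with I3 lower, and 1 gene each of SREBP processing and degradation, fatty acid synthesis and the LXR list did not overlap with I3 higher, beside 5.06% of all tested genes.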

How the data were processed

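mRNA-seq was performed by the study on 3 control and 3 I3 samples of Kasumi-1 cells, grouped and numbered by the sample labels. Stranded libraries of polyadenylated RNA were prepared. The submitters' processing notes name hg38, Trimmomatic, HISAT2, Cufflinks and HTSeq without versions, and which annotation was used is not given there. The authors tested differential expression with DESeq. They deposited FPKM values, normalised to gene length and library total, with 1 column per library, and no value column was left out (0 unused). The name of the table gives the compound as I13, whereas the labels give I3, and a legend of the study gives a longer incubation than the 48 h of the labels.

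GENCODE release 29 held 29703 of the 29810 identifiers and gave exon lengths and coordinates on GRCh38. Reads were rebuilt from FPKM and exon length, and were whole within 0.1 read for 95.8% of 26519 genes. They were whole for 26 of the 30 genes, the exceptions being IDI1, CYP51A1, HSD17B7 and SCAP. A single read on 1 kb was worth 0.0561 FPKM in I3 1. Libraries of a group were not copies, since the chi-square of their reads per degree of freedom was 4.23 or more.

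FPKM is not a count, so limma 3.58.1 in R 4.3.3 (eBayes with trend, two-sided) was applied to log2(FPKM + 0.5) for the 12960 genes averaging 0.5 FPKM or more, without covariates and with Benjamini-Hochberg adjustment. A fold change on this scale understates that of low genes. A call required an adjusted p under 0.05 and a difference of 0.58 or more on the log2 scale. Tables and figures used pandas 2.3.3 and matplotlib 3.10.9 in Python 3.11.15. The fit was tested on simulated data. Alternatives were other pseudocounts and minimums, TPM, median-of-ratios scaling, removal of the GC trend (lowess span of 0.3), a replicate block, each library left out, and voom on rebuilt reads.

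All 30 genes are accounted for. Fit statistics were set to be given for members at an unadjusted p under 0.05, with groups that do not overlap, called without 1 library, or with the 2 largest changes in a role, for the regulators, and for HMGCS1, SQLE and FDFT1. Values for other genes, MSMO1, SC5D and DHCR7 among them where they illustrate spread, were added after they were seen. INSIG1 was set as a regulator, and its use to illustrate spread likewise came after its values were seen. The members and lists were chosen with earlier results of these data known.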

Additional observations from a re-analysis of the deposited data

How the results depend on the processing

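No cholesterol gene was called under any alternative other than EBPL without I3 1 (log2 fold change -1.20). EBPL, MVK, ACAT2, SC5D, SREBF1 and SREBF2 kept their direction under all alternatives. The number of genes called among all tested genes ranged from 0 to 1 higher (SNORD101 without control 1) and from 0 to 2 lower (CHCHD10 and EBPL without I3 1, and ENSG00000265982 without I3 2) when 1 library was left out. The cholesterol genes at an unadjusted p under 0.05 ranged from 0 to 4 higher and from 0 to 2 lower, and 2 were lower with median-of-ratios scaling. The 4 higher came without control 1, where 7.3% of all tested genes were higher. In either direction, 462 to 1420 of all 12960 tested genes had such a p without 1 library. With median-of-ratios scaling 659 of 12959 did. The cholesterol genes with groups that do not overlap ranged from 0 to 6 higher and from 3 to 5 lower. Without 1 library, the shares of all tested genes were 8.16% to 18.9% higher and 6.85% to 12.1% lower. Leaving out 1 library, the median of the sensing genes ranged from -0.0866 to -0.0054, and with TPM it was -8e-04. Directions that changed belonged to genes near 0, and the cause was not tested. INSIG2 became 3e-04 with a pseudocount of 0.1, 0.0086 with TPM and 0.0046 with voom. With the GC trend removed HMGCS1 was -0.0268, MSMO1 -0.0296 and SCAP 0.0232. Leaving out 1 library at a time gave -0.19 to 0.28 for INSIG2, -0.0734 to 0.18 for HMGCS1, -0.13 to 0.32 for MSMO1, -0.0873 to 0.0614 for SCAP, -0.14 to 0.0643 for SQLE, -0.0466 to 0.0311 for FDFT1, -0.11 to 0.0946 for MYLIP, -0.0866 to 0.20 for INSIG1, -0.11 to 0.49 for STARD4 and -0.0027 to 0.0492 for NPC1. The highest values of these came without control 1 for all but SCAP and NPC1. Where control 1 was the highest control, leaving it out raises the value by construction. Deviations of same-numbered samples had r across genes of 0.06, 0.15 and -0.02, and those of other pairings had -0.17 to 0.10. With 3 samples per group these values cannot tell whether the numbers pair the samples, and the labels do not say. With the replicate number as a block, 0 genes were called, EBPL stayed at -0.83 (adjusted p = 0.698 in limma), and 856 in place of 639 genes had an unadjusted p under 0.05.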

Other observations

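Genes outside the pathway whose level followed that of EBPL were listed among 303 genes, those averaging 5 FPKM or more with a log2 range at least 0.5 times that of EBPL. They were picked by this likeness after the values were seen, so it is a description over 6 libraries. CHCHD10, a mitochondrial protein (Pearson r = 0.993), had 48.5, 55.5 and 49.5 FPKM in the controls and 40.9, 11.5 and 8.37 FPKM in I3. C1QTNF4, a secreted protein of the C1q family (0.989), had 152, 127 and 135 FPKM in the controls and 133, 68.5 and 59.8 FPKM in I3. In each of these, I3 1 lay near the controls and I3 2 and I3 3 were low. HOMER3, a scaffold protein (0.988), had 14.6, 15.7 and 14.4 FPKM against 14.0, 7.77 and 6.33 FPKM. NPW, a neuropeptide precursor (0.988), had 231, 205 and 218 FPKM against 212, 100.1 and 77.6 FPKM.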
